A study of Mus musculus with 12 samples.

Results

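The measurements below describe 10 genes that clear aldehydes or use them as intermediates, Aldh2, Adh5, Esd, Aldh1a1, Aldh1b1, Aldh3a2, Aldh6a1, Aldh7a1, Aldh9a1 and Aldh18a1, in sorted mouse blood stem and progenitor cells. The genes were chosen by name as aldehyde dehydrogenases, the formaldehyde-oxidising alcohol dehydrogenase and the hydrolase that follows it, and all 10 were found among the 35999 genes of the deposited table. RNA-seq was made from LSK cells (lineage-negative, Sca-1+, KIT+) sorted from the bone marrow of 6 WT mice and 6 Fancg KO mice, with 1 library per mouse. Fancg encodes a subunit of the Fanconi anaemia core complex, and the KO mice are described as Fancg-/-, with no Cre or tissue restriction named. No treatment is named for any of these mice, and their age, sex and strain are not given in the sources used here. The comparison of KO with WT asks whether loss of the Fanconi anaemia pathway goes with a different transcript level of the enzymes that remove aldehydes.

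Aldehydes arise in every cell, formaldehyde from demethylation and one-carbon metabolism and acetaldehyde from ethanol and from other metabolites, and they can join the strands of DNA. The Fanconi anaemia pathway repairs such crosslinks. Formaldehyde combines with glutathione, ADH5 oxidises the adduct to S-formylglutathione, and ESD, the S-formylglutathione hydrolase, releases formate and free glutathione. ALDH2 oxidises acetaldehyde in mitochondria. Mice that lack Aldh2 or Adh5 together with a Fanconi anaemia gene are known for loss of blood stem cells, so these enzymes are counted as a layer of protection ahead of DNA repair. The other members oxidise retinaldehyde, fatty aldehydes and the semialdehydes of amino acid and carnitine metabolism, or, for ALDH18A1, make a semialdehyde for proline synthesis.

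RefSeq promoter sequences (GRCm38.p6) were read for 8 of the 10 members. Aldh2 had no entry, and Aldh7a1 was not used. The 250 bases before the start of 3 members are shown 5′ to 3′ because of their levels, spread or fold change: Adh5 had the lowest spread relative to counting error, Esd had the lowest fold change between genotypes, and Aldh1a1 had the lowest level. Capitals mark CG dinucleotides. All 3 lie on the + strand, at chr3:138442843-138443092 for Adh5, chr14:74732047-74732296 for Esd and chr19:20601718-20601967 for Aldh1a1.
Adh5: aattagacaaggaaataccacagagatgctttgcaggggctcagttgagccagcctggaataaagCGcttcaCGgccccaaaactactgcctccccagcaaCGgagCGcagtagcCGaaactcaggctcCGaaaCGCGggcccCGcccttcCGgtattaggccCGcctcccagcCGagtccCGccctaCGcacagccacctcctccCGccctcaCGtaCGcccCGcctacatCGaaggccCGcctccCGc
Esd: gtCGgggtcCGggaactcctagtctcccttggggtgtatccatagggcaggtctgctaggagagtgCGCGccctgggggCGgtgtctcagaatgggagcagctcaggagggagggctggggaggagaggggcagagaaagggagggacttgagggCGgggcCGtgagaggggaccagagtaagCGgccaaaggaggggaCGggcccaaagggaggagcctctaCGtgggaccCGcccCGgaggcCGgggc
Aldh1a1: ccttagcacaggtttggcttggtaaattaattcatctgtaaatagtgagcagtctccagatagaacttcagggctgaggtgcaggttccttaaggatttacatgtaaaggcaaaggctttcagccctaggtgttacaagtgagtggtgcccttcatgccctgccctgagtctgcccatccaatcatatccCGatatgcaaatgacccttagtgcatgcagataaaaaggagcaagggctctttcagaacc

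The Adh5 window held 21 CG dinucleotides, the Esd window 13 and the Aldh1a1 window 1, where the median of 32851 mouse promoters of the same length was 6 and the quartiles were 2 and 16. The other windows held 18 in Aldh3a2, 18 in Aldh18a1, 9 in Aldh6a1, 8 in Aldh9a1 and 4 in Aldh1b1. The windows used for Aldh1a1 and Aldh3a2 lie inside the annotated spans of these genes, downstream of their outermost starts. Searched on both strands, the GC box GGGCGG was present in Adh5, Esd, Aldh1b1, Aldh3a2 and Aldh18a1 and in 32.7% of all promoters. CCAAT was present in Aldh1a1, Aldh3a2, Aldh6a1 and Aldh9a1 and in 33.8% of all promoters. TATAAA, present in 12.4% of all promoters, was in none of the 8 windows. The element TGACNNNGC, the core of the sequence bound by NRF2, was in the Aldh9a1 window alone among the 8 and in 10.2% of all promoters. These matches describe letters in a window, and no motif contains the letters of another.

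Values are the deposited normalised counts, called signal here, which summed to between 1576081 and 2672915 per library, or about 1235110 to 2471413 reads by the smallest step between low values. Lars2 took between 15.6% and 36.2% of the signal. Fancg itself was at 10.3 ± 6.96 (SD, n = 6) in WT and 8.53 ± 4.18 (n = 6) in KO, with a two-sided exact permutation p of 0.636, so the transcript level of the targeted gene did not separate the labels. The genotype is therefore that of the labels, and directions below are those of libraries labelled KO. Of 13 LSK markers 12 had a mean signal of at least 10, Kit at 336 and 351 and Cd34 at 646 and 595 in WT and KO. Ly6a, which encodes Sca-1, was low at 11.5 and 10.1. Megakaryocyte markers summed to 13.8 to 52.4 in WT and 23.8 to 84.1 in KO (exact permutation p = 0.069). Among them Itga2b was at 14.8 ± 2.99 and 25.8 ± 9.70 (n = 6 each, exact permutation p = 0.0043, adjusted limma p = 0.9996). B-cell markers summed to 1.35 to 5.33 in WT and 0 to 2.34 in KO (exact permutation p = 0.039). T-cell markers summed to 2.20 to 6.38 in WT and 1.45 to 7.51 in KO, erythroid markers to 3.80 to 19.1 and 2.04 to 24.2, mature myeloid markers to 29.1 to 55.4 and 27.5 to 99.9, and stromal and endothelial markers to 0.209 to 2.02 and 0.344 to 2.12. Their part in the values of the 10 members was not tested. WT replicate 3 and KO replicate 7 had Y-linked sums of 26.6 and 49.7, where the other 10 libraries had 189 to 435, and fold changes without both are given beside the members that moved most.

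No member passed the unpaired test between genotypes. Of the 10 members 7 had a mean signal of at least 10 and were tested in the fit across all genes (limma on log2(signal + 1), 8887 genes), and 0 of the 7 passed an unadjusted p of 0.05, where 326 of 8887 genes did, or 3.67% (1.98% higher in KO and 1.69% lower). No gene of the 8887, members included, passed an adjusted p of 0.05, a background of 0%. Among the 7 tested members 4 had a fold change above 0 and 3 below 0 on the log2 scale, with a median of 0.03, where the median over all genes was 0.00 and the central 95% of all genes ran from -0.55 to 0.58. The values of WT and KO overlapped for all 10 members. The share of all genes that overlapped is not given here, so no call is made from this count. Whether less RNA per cell or fewer cells of one type lay behind a value cannot be told apart in sorted bulk cells.

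**Figure D1:**
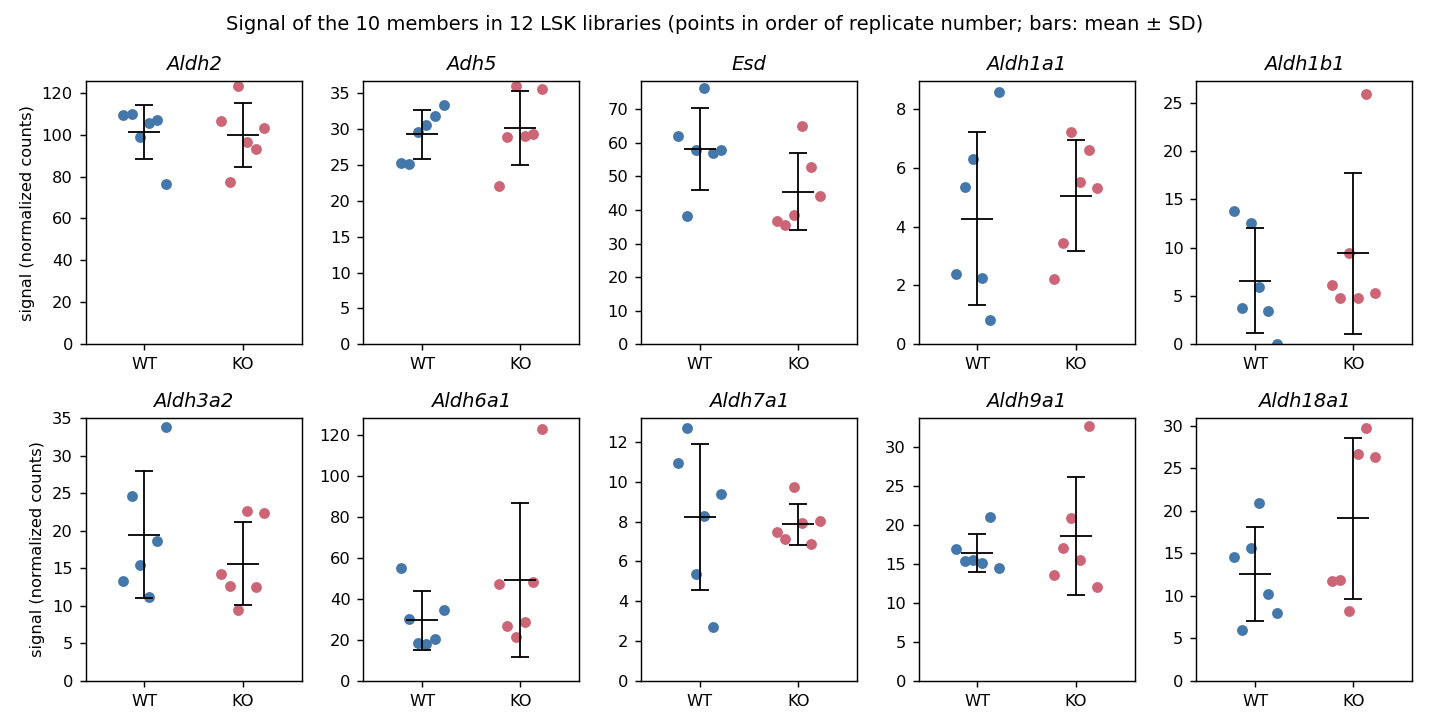
Signal (normalised counts, linear axis from 0) of each of the 10 members in the 6 WT and 6 KO libraries, 1 point per library with the mean and SD as bars. The points of the 2 genotypes overlap in every panel, and single libraries stand apart for Aldh2, Aldh1b1, Aldh6a1 and Aldh9a1.

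Aldh2, Esd and Adh5 had the highest mean signal per kb of transcript, at 35.5, 33.4 and 18.5. Adh5 was above Aldh6a1, the next member, in 9 of 12 libraries, a difference of 6.97 ± 8.49 (SD) that was within the spread. Aldh1b1, which can also oxidise acetaldehyde, was at 3.48. Aldh2 is annotated at chr5:121566027-121593824 on the - strand (GRCm38, GENCODE M21), Adh5 at chr3:138443093-138455499 and Esd at chr14:74732297-74750765, both on the + strand. Aldh2 had a lowest, median and highest signal of 76.3, 106 and 110 in WT and of 77.3, 99.7 and 123 in KO. The mean was 101 ± 12.8 (SD, n = 6) in WT and 99.9 ± 15.3 (n = 6) in KO. The log2 fold change of KO against WT was -0.02 (SE 0.14), with a 95% interval in fold of 0.797 to 1.22 and an adjusted limma p of 0.9996. The libraries held about 64.2 to 158 reads of the gene, and the WT and KO values covered nearly the same range.

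Adh5, the enzyme that oxidises the formaldehyde adduct of glutathione, had a lowest, median and highest signal of 25.2, 30.1 and 33.4 in WT and of 22.1, 29.2 and 36.0 in KO. The means were 29.3 ± 3.40 and 30.2 ± 5.16 (SD, n = 6 each). The log2 fold change was 0.03 (SE 0.16), with an interval in fold of 0.802 to 1.30 and an exact permutation p of 0.805. Without the pair of libraries low in Y-linked transcripts it was -0.060. The range of the KO libraries extended below and above that of the WT libraries.

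Esd, the hydrolase of S-formylglutathione, had a lowest, median and highest signal of 38.3, 57.9 and 76.3 in WT and of 35.6, 41.3 and 65.0 in KO. The means were 58.2 ± 12.2 and 45.4 ± 11.5 (SD, n = 6 each). The log2 fold change of -0.36 (SE 0.19) was the lowest of the 10 members, with an interval in fold of 0.590 to 1.03. It did not pass the unpaired test, with a limma p of 0.081 before adjustment and an adjusted limma p of 0.9996. The two-sided exact permutation p was 0.095. Without WT replicate 3, the lowest WT library at 38.3, the log2 fold change was -0.47 with an unadjusted limma p of 0.021, and without KO replicate 5, the highest KO library at 65.0, it was -0.46 with an unadjusted limma p of 0.025. Without both libraries that were low in Y-linked transcripts it was -0.47 with an unadjusted limma p of 0.031, and Esd was then the 1 member of the 7 past 0.05. Scaled to equal totals, the log2 fold change was -0.28 with an unadjusted limma p of 0.326. With Lars2 left out of the totals it was -0.30 with an unadjusted limma p of 0.375. Without WT replicate 5, the highest WT library at 76.3, it was -0.27 with an unadjusted limma p of 0.185. With a block for the replicate number the limma p was 0.034 before adjustment and 0.889 after. With all 12 libraries, and in each alternative that was tried, no adjusted p was under 0.05. Of the 31-base sequences of Esd transcripts 12.1% also occur in other annotated genes, 8.84% in the pseudogene Gm5456. Its mean signal was 0.270, and how reads of the shared stretch were divided is not given in the sources used here.

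**Figure D2:**
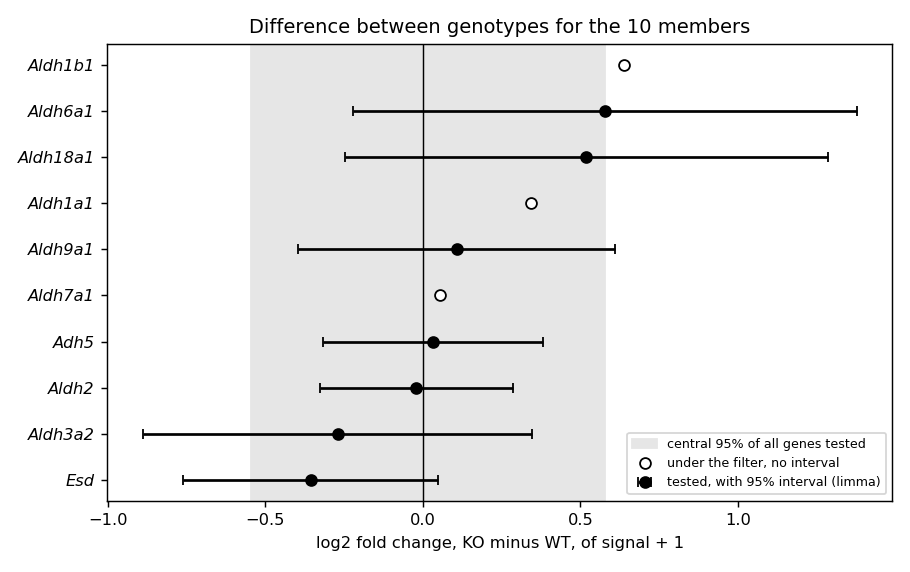
Log2 fold change of KO against WT of signal + 1 for the 10 members, filled points with 95% intervals from limma for the 7 tested members and open points without interval for the 3 members under the filter. Every interval crosses 0, that of Esd from -0.76 to 0.05, and the grey band is the central 95% of all 8887 genes tested, from -0.55 to 0.58.

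The cytosolic Aldh1a1, which makes retinoic acid from retinaldehyde and whose activity is used to sort stem cells, had a mean signal under 10. It ranged from 0.83 to 8.58 in WT and from 2.23 to 7.24 in KO, about 0.66 to 9.26 reads per library. The means were 4.28 ± 2.94 and 5.06 ± 1.89 (SD, n = 6 each), with an exact permutation p of 0.439. Of its 31-base sequences 5.70% are shared with Aldh1a7, whose mean signal was 0.734.

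Aldh1b1, a mitochondrial enzyme that like ALDH2 can oxidise acetaldehyde, was also under the filter. It ranged from 0 to 13.8 in WT with a median of 4.86, and from 4.78 to 26.0 in KO with a median of 5.73. The WT library at 0, replicate 7, allows a signal of up to 3.24, the value of 3 reads there, for counting error only. The means were 6.59 ± 5.47 and 9.40 ± 8.30 (SD, n = 6 each, exact permutation p = 0.396). KO replicate 6 alone was above the highest WT library. Without it the log2 fold change, 0.64 with all libraries, was 0.31, and without WT replicate 7 it was 0.14.

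Aldh3a2, the fatty aldehyde dehydrogenase that also oxidises the aldehyde released from sphingosine 1-phosphate, had a lowest, median and highest signal of 11.2, 17.03 and 33.8 in WT and of 9.51, 13.4 and 22.6 in KO. The means were 19.5 ± 8.45 and 15.6 ± 5.52 (SD, n = 6 each), and the log2 fold change of -0.27 (SE 0.29) did not pass the test (exact permutation p = 0.383). WT replicate 7 held the highest value, and without it the log2 fold change was -0.099.

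Aldh6a1, methylmalonate semialdehyde dehydrogenase of valine breakdown, had the widest spread of the tested members. It had a lowest, median and highest signal of 18.1, 25.3 and 55.2 in WT and of 21.4, 38.0 and 123 in KO. The means were 29.5 ± 14.2 and 49.2 ± 37.7 (SD, n = 6 each). The log2 fold change was 0.58 (SE 0.38), with an interval in fold of 0.858 to 2.60 and an unadjusted limma p of 0.144. KO replicate 7 held the 123, and without it the log2 fold change was 0.27 with an unadjusted limma p of 0.397. Without WT replicate 3 as well it was 0.29. The gene shares exon sequence on the opposite strand with Bbof1, which holds 17.1% of its 31-base sequences, and how the counting treated strand is not given in the sources used here. Bbof1 was at 45.0 in KO replicate 7 and between 4.92 and 24.3 in the other libraries, so it was highest in the library where Aldh6a1 was highest. In KO replicate 4, where Bbof1 was at 24.3, Aldh6a1 was at 21.4, its lowest KO value. In KO replicate 6 Aldh6a1 was at 48.4 and Bbof1 at 6.29. If strand was not used, reads of the 2 genes cannot be told apart in the shared stretch. The part of Bbof1 in the Aldh6a1 values was not tested.

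Aldh7a1, which oxidises the semialdehyde of lysine breakdown, ranged from 2.73 to 12.7 in WT and from 6.88 to 9.71 in KO. The means were 8.24 ± 3.67 and 7.86 ± 1.01 (SD, n = 6 each), under the filter, with an exact permutation p of 0.883. All 6 KO libraries lay inside the range of the WT libraries. The log2 fold change of 0.05 was 0.18 without the pair of libraries low in Y-linked transcripts. It overlaps Phax on the opposite strand.

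Aldh9a1, which acts in carnitine synthesis, had a lowest, median and highest signal of 14.5, 15.4 and 21.02 in WT and of 11.99, 16.2 and 32.6 in KO. The means were 16.4 ± 2.41 and 18.6 ± 7.52 (SD, n = 6 each), and the log2 fold change was 0.11 (SE 0.24, exact permutation p = 0.677), or 0.19 without the pair of libraries low in Y-linked transcripts. The KO libraries reached both below and above the WT range.

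Aldh18a1, the first enzyme of proline synthesis from glutamate, had a lowest, median and highest signal of 6.04, 12.4 and 20.9 in WT and of 8.23, 19.1 and 29.7 in KO. The means were 12.6 ± 5.50 and 19.1 ± 9.46 (SD, n = 6 each). The log2 fold change of 0.52 (SE 0.36) had an interval in fold of 0.842 to 2.44 and an unadjusted limma p of 0.170. Without the pair of libraries low in Y-linked transcripts it was 0.23 with an unadjusted limma p of 0.543. KO replicates 5, 6 and 7 lay above every WT library, at 26.7, 29.7 and 26.3, and the other 3 KO libraries, at 11.7, 11.9 and 8.23, lay inside the WT range.

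Summed over the 10 members, the signal had a median of 276 in WT and 293 in KO, with ranges of 271 to 324 and 226 to 385 (exact permutation p = 0.654). Aldh2 gave between 26.8% and 43.4% of this sum by library. Levels were then compared between members per kb of transcript, using the median length of the consensus coding transcripts of GENCODE M21. The mean level over 12 libraries was 35.5 ± 4.75 (SD) signal per kb for Aldh2, 33.4 ± 8.43 for Esd and 18.5 ± 2.61 for Adh5. Aldh6a1 followed at 11.6 ± 8.55, Aldh9a1 at 6.17 ± 1.92, Aldh3a2 at 5.68 ± 2.30 and Aldh18a1 at 4.55 ± 2.34. Aldh1b1 was at 3.48 ± 2.99, Aldh7a1 at 2.66 ± 0.853 and Aldh1a1 at 2.12 ± 1.09.

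Of the 9 neighbouring pairs in this order only Esd and Adh5 differed beyond their spread, with Esd higher in 12 of 12 libraries by 14.8 ± 8.58 signal per kb. Aldh2 was above Esd in 6 of 12 libraries, a difference of 2.10 ± 9.98 that was within the spread. The other 7 neighbouring pairs were in the stated order in 6 to 9 of 12 libraries. With the longest consensus transcript instead of the median, Esd came before Aldh2 and Aldh1a1 before Aldh7a1.

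**Figure D3:**
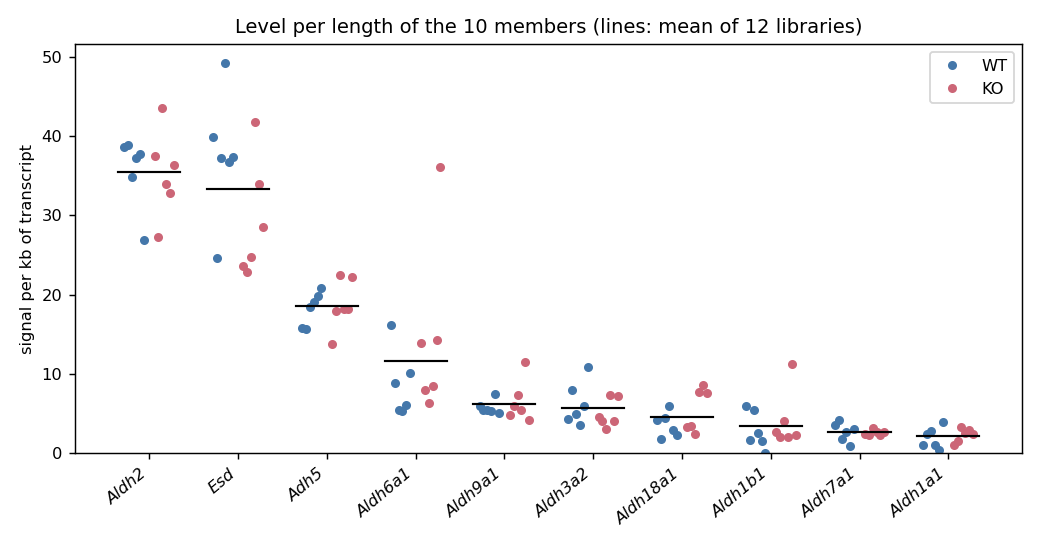
Signal per kb of transcript (linear axis from 0) of the 10 members, ordered by their mean over 12 libraries (line), with 1 point per WT or KO library. Aldh2 and Esd, at means of 35.5 and 33.4, lie above Adh5 at 18.5, and Aldh1a1 is lowest at 2.12.

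The members differed in how much they varied between mice of 1 genotype. The coefficient of variation within genotype was 14.0% for Aldh2 and 14.7% for Adh5. Counting of the approximate reads alone gives 10.1% for Aldh2 and 18.6% for Adh5. Esd varied by 22.8% (counting 14.0%), Aldh9a1 by 31.9% (24.3%), Aldh7a1 by 33.5% (35.8%), Aldh3a2 by 40.6% (24.7%), Aldh18a1 by 48.9% (25.7%) and Aldh1a1 by 53.0% (46.7%). The ratio of spread to counting was 0.788 for Adh5, 0.934 for Aldh7a1, 1.14 for Aldh1a1, 1.32 for Aldh9a1 and 1.38 for Aldh2. Aldh6a1 varied by 72.4% where counting gives 17.3%, a ratio of 4.19 and the highest of the 10. Aldh1b1 varied by 87.9% where counting gives 35.8%. For Aldh6a1 and Aldh1b1 these figures include the single high KO libraries named above.

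Over the 12 libraries none of the 21 pairs of the 7 tested members was correlated, with Pearson's r of log2(signal + 1) between -0.43 and 0.46 and a smallest adjusted permutation p of 0.924. In a comparison chosen after the values were seen, each library was set against its genotype mean, and 1 of the 21 pairs then passed. Esd and Aldh18a1 had a Pearson's r of 0.83 (permutation p = 0.00196, adjusted over the 21 pairs 0.041) and a Spearman's rho of 0.83 (permutation p = 0.00157, adjusted 0.033). Without the 2 libraries farthest from the median of Esd, r was 0.81, and it was 0.86 within WT and 0.80 within KO. Without setting the genotypes to a common mean, r was 0.46 (permutation p = 0.133) and rho 0.38 (permutation p = 0.218). Esd had its lower mean and Aldh18a1 its higher mean in KO.

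Of the other 8886 genes tested, 9 had an r at least as high with Esd and 13 with Aldh18a1. The share of signal taken by Lars2, also as a deviation from the genotype mean, was set beside both genes. Its r was 0.65 with Esd (permutation p = 0.031, rho = 0.57 with permutation p = 0.059) and 0.57 with Aldh18a1 (permutation p = 0.068, rho = 0.63 with permutation p = 0.032). Neither r passed after adjustment over 4 relations with depth and Lars2 (adjusted permutation p = 0.124 and 0.136), and they fell to 0.40 and 0.37 without the 2 farthest libraries. With the Lars2 share taken out of both genes, r between Esd and Aldh18a1 was 0.73. The part of the Lars2 share in this relation was otherwise not tested.

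**Figure D4:**
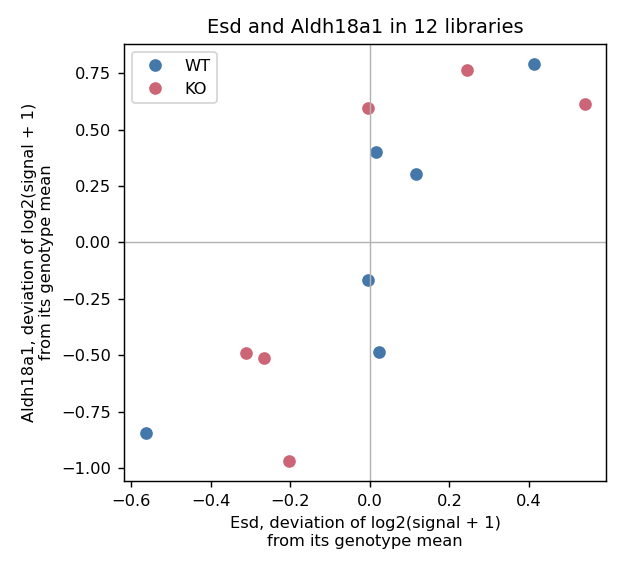
Deviation of log2(signal + 1) from the genotype mean for Esd (horizontal axis) and Aldh18a1 (vertical axis), 1 point per library, WT and KO in separate colours. The points rise together with an r of 0.83 over 12 libraries, from WT replicate 3 at the lower left to WT replicate 5 and KO replicate 5 at the upper right.

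The enzymes around the members were read from 8 lists with 91 genes, of which 45 were tested. None of the 45 passed an unadjusted limma p of 0.05 in either direction, where 3.67% of all genes did. No call is made from these counts about any list. Since no gene passed, up to 3 genes of each list are named by their mean signal. Values are means ± SD of 6 WT and 6 KO libraries.

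Of 12 further aldehyde dehydrogenases 2 were tested and 2 were at 0 in every library. Aldh16a1 was at 18.9 ± 4.25 and 24.4 ± 13.6, and Aldh4a1, which acts in proline breakdown, at 15.5 ± 5.70 and 21.3 ± 12.6. Of 5 further alcohol dehydrogenases none reached the filter. Adh4, Adh6a and Adh7 were at 0 in every library, and Adh1 and Adh6b had mean signals of 0.0499 and 0.274. Adh5, at a mean signal of 29.8 over 12 libraries, was the only one of the 6 alcohol dehydrogenases examined with a mean signal of at least 10.

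Of 17 carbonyl reductases, which reduce aldehydes and ketones to alcohols, 9 were tested, with log2 fold changes of -0.25 to 0.15 and a median of -0.01. Akr1a1, an aldehyde reductase, was at 124 ± 19.96 and 122 ± 4.67. Akr1b3, aldose reductase, was at 67.7 ± 12.6 and 64.8 ± 22.7. Dhrs3, which reduces retinaldehyde, was at 27.9 ± 7.15 and 25.1 ± 9.27. By their means Akr1a1 was near Aldh2 in signal, though not corrected for length.

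Of 5 genes of methylglyoxal removal 3 were tested, with a median log2 fold change of -0.19 and a range of -0.26 to 0.12. Park7 was at 54.5 ± 15.6 and 57.6 ± 7.82, Glo1, glyoxalase I, at 47.8 ± 10.4 and 39.8 ± 9.05, and Haghl at 19.2 ± 6.16 and 17.2 ± 7.93. Glutathione, the carrier of formaldehyde in the Adh5 and Esd route, is made and reduced by 4 listed genes, of which 3 were tested with a median of -0.18. Gclm, the modifier subunit of the first enzyme of its synthesis, was at 32.3 ± 6.28 and 39.4 ± 9.13, and Gclc, its catalytic subunit, at 13.8 ± 1.54 and 12.4 ± 3.53. Gsr, glutathione reductase, was at 22.4 ± 8.82 and 16.9 ± 5.76. The range over these 3 was -0.34 to 0.28.

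Of 12 genes of folate one-carbon metabolism, which takes up the formate that Esd releases, 8 were tested, with a median log2 fold change of 0.01 and a range of -0.41 to 0.63. Mthfd1l, a mitochondrial formate-tetrahydrofolate ligase, was at 122 ± 50.1 and 125 ± 48.3. Shmt1, a serine hydroxymethyltransferase, was at 58.4 ± 19.7 and 61.4 ± 15.1.

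Of 16 enzymes that release aldehydes or hydrogen peroxide or act on them 8 were tested, with a median of -0.08 and a range of -0.25 to 0.09. On the log2 scale 1 had a fold change above 0 and 7 below 0, where all genes tested had 4507 above and 4380 below. Scaling to equal totals moved the all-gene median to 0.082, and the split of this list under that scaling is not given here. The RNA demethylases Alkbh5 and Fto, whose reaction yields formaldehyde, were at 402 ± 227 and 366 ± 137 and at 112 ± 16.2 and 121 ± 27.2. Cat, catalase, was at 64.0 ± 10.7 and 57.3 ± 23.2.

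Of 20 genes that share the valine, lysine, carnitine or proline routes with the members 12 were tested, with a median of 0.02 and a range of -0.40 to 0.27. Hibadh of valine breakdown was at 87.8 ± 9.73 and 87.5 ± 16.7. Oat, which leads from ornithine to the same intermediate as Aldh18a1, was at 43.4 ± 15.4 and 37.4 ± 9.11, and Dld, a shared dehydrogenase subunit, at 39.0 ± 9.08 and 39.5 ± 10.7.

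**Figure D5:**
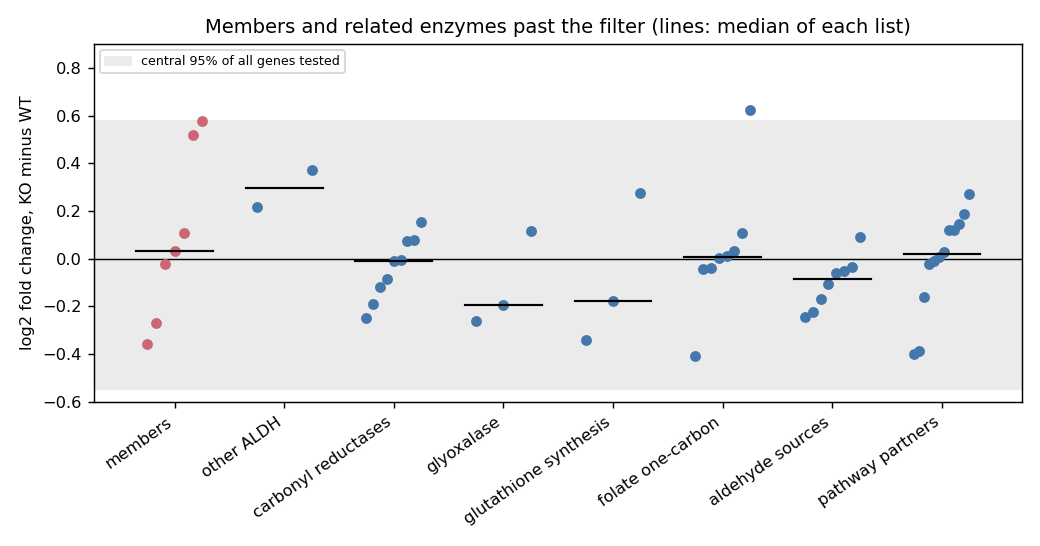
Log2 fold change of KO against WT for the 7 tested members and the tested genes of 7 lists of related enzymes, 1 point per gene with the median of each list as a line. List medians run from -0.19 to 0.29 around an all-gene median of 0.00, and the grey band is the central 95% of all genes tested, -0.55 to 0.58.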

How the data were processed

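RNA-seq libraries of LSK cells from 12 mice were analysed, 6 labelled WT and 6 labelled KO, sorted from bone marrow and prepared with the CATS RNA-seq kit after mRNA enrichment. The authors deposited 1 table of signal for each gene in each library. Its name and its values point to estimated counts scaled by a size factor per library, and 0 columns were left unused. The submitters' processing notes name kallisto, and its version, the mouse genome build and the annotation are not given in the sources used here. Between 12.7% and 13.3% of values per library were whole multiples of the smallest common step (tolerance 0.01), so whole reads were not recovered, read numbers are approximate and no count model was run. Counting figures and floors cover counting error only, and the labels do not say more of the mice than their genotype and number, so p-values measure the spread between these libraries.

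KO was compared with WT by limma 3.58.1 (R 4.3.3) on log2(signal + 1) over genes whose signal averaged 10 or more, with a variance trend, two-sided tests, no covariate and Benjamini-Hochberg adjustment over all 8887 genes. Fold changes are on that scale and understate changes of low genes. Single members had a two-sided exact permutation test over all divisions into 6 and 6, whose smallest p is 0.0022. Correlations used 100000 resamples (Python 3.11.15, scipy 1.17.1). The fit was tested on simulated data. Members and lists were chosen with earlier results of these data known. Named were all members, genes of each list past an unadjusted p of 0.05 or otherwise up to 3 with the highest mean signal, and Fancg. A gene that this rule names in the folate list is not reported here. Itga2b, Kit, Cd34, Ly6a and the genes that share sequence with members were named after their values were seen. Transcript lengths and overlaps are from GENCODE M21 on GRCm38, in which 35929 of 35999 gene names were found, and it may not be the annotation of the files. Alternatives changed the pseudocount, filter, scaling, variance trend, replicate block and libraries, and the correlation of deviations from genotype means was added after the data were seen.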

Additional observations from a re-analysis of the deposited data

Results flagged for a closer look

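The WT and the KO libraries of each member made 20 groups of 6 libraries. Of these, 4 held a library far from the others by Dixon's test of the linear signal at the 95% level. Chance gives about 1 if the values are normally distributed, which was not tested and need not hold for low counts. Aldh2 was at 76.3 in WT replicate 7 and between 98.8 and 110 in the other WT libraries. Aldh1b1 was at 26.0 in KO replicate 6 and between 4.78 and 9.42 in the other KO libraries. Aldh6a1 was at 123 in KO replicate 7 and between 21.4 and 48.4 in the other KO libraries. Aldh9a1 was at 21.02 in WT replicate 6 and between 14.5 and 16.9 in the other WT libraries.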

How the results depend on the processing

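The count of 326 genes past an unadjusted p of 0.05 was 836 with no filter, 91 with a filter at 50 and 124 with libraries scaled to equal totals without Lars2, and leaving out 1 library at a time gave 275 to 383. Scaling moved the split of 176 higher and 150 lower to 191 and 50 with equal totals and to 86 and 38 without Lars2, with all-gene medians of 0.082 and 0.057 on the log2 scale. No setting gave a gene with an adjusted p under 0.05. The count of members past an unadjusted p of 0.05, 0 in the report, was 1 (Esd) without WT replicate 3 and KO replicate 7 together (log2 fold change -0.47), and 0 to 1 over single libraries left out. Esd stayed below 0 in all settings, between -0.47 and -0.27. The members' median of 0.03 was -0.19 with the filter at 50, which leaves Aldh2 and Esd, and -0.022 to 0.11 over single libraries left out. Aldh2 turned to 0.060 with equal totals and 0.035 without Lars2, and Adh5 to -0.060 without both libraries. Over single libraries left out Aldh2 ran from -0.099 to 0.049, Adh5 from -0.022 to 0.11, Aldh7a1 from -0.18 to 0.19, Aldh9a1 from -0.064 to 0.21, Aldh3a2 from -0.40 to -0.099, Aldh6a1 from 0.27 to 0.78, Aldh18a1 from 0.35 to 0.71, Aldh1a1 from 0.080 to 0.56 and Aldh1b1 from 0.14 to 0.92. Without both libraries Aldh6a1 was 0.29, Aldh18a1 0.23, Aldh9a1 0.19 and Aldh7a1 0.18. Of 86 member values under the other alternatives 81 kept direction and side of the threshold, as did 107 of 120 with 1 library left out. The count of correlated pairs was 0 and became 1 with deviations from the genotype means. The cause of these shifts was not tested. The members under the filter had no value with quantile normalisation or without trend.

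No label says what same-numbered WT and KO libraries share beyond the number. Their deviations from the genotype means correlated at 0.086 to 0.36 (mean 0.20, different numbers -0.04). Of the 12 libraries 9 correlated best with their own number, and the main fit leaves this relation out. With the replicate block 476 genes and 1 member passed an unadjusted p of 0.05, the member being Esd. For Esd the limma fit with the block gave an unadjusted p of 0.034 and an adjusted p of 0.889. Esd was higher in KO in 0 of 6 same-numbered pairs (sign-flip permutation p = 0.031). For Aldh6a1 the unadjusted limma p with the block was 0.051. Depth limits the members under the filter most, with a median of 4.39 approximate reads for Aldh1a1.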
